A study of Bos taurus with 6 samples.

Results

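RPE65 (ENSBTAG00000020494) and DHRS3 (ENSBTAG00000024493) are 2 genes of retinoid metabolism among the 29154 genes counted in bovine mammary epithelial cells after transfection with a miR-375 inhibitor. They were chosen from the study's own list of changed genes, which was selected on a DESeq2 p under 0.05 and a log2 fold change beyond 1 in either direction in these same 6 libraries. The difference between the groups and the spread between replicates both enter that p, so each is given below as a description, with no test.

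RPE65 is the isomerohydrolase of the visual cycle. In the retinal pigment epithelium it turns all-trans retinyl esters into 11-cis retinol, from which the chromophore of the visual pigments is made. DHRS3 is a short-chain dehydrogenase/reductase that reduces retinaldehyde back to retinol. It draws on the same pool of retinaldehyde from which retinoic acid is formed, and its gene is known to be induced by retinoic acid.

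The cells were MAC-T, 1 established line of bovine mammary epithelial cells. They received 100 nM of miR-375 inhibitor or 100 nM of inhibitor NC, the negative control for the inhibitor, and RNA was sequenced after 48 h from 3 libraries per group. The labels do not say whether the 3 libraries of a group came from separate cultures, so any SD or p-value measures the spread between these libraries, which may be technical. Total counts were 14479278, 16213226 and 16047812 in inhibitor NC replicates 1, 2 and 3, and 15228121, 14903099 and 16324556 in miR-375 inhibitor replicates 1, 2 and 3.

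RPE65 was lower in every miR-375 inhibitor library than in any inhibitor NC library, at close to the same level within each group. Its raw counts were 52, 51 and 48 in inhibitor NC replicates 1, 2 and 3. In miR-375 inhibitor replicates 1, 2 and 3 they were 25, 24 and 25. All 3 control libraries were thus high, all 3 inhibitor libraries were low, and the groups did not overlap.

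Normalized counts, which are counts scaled to the mean effective library size after TMM normalization, gave the same order of groups. RPE65 stood at 55.4, 48.6 and 46.1 normalized counts in the inhibitor NC libraries and at 25.7, 25.2 and 23.9 in the miR-375 inhibitor libraries. The group means were 50.0 ± 4.82 (SD, n = 3) and 24.9 ± 0.954 (SD, n = 3), a ratio of 2.0. The lowest control library was 1.79 times the highest inhibitor library. The depth of the measurement was modest. The exact Poisson 95% interval, which covers counting error only, ran from 34.0 to 61.1 normalized counts in inhibitor NC replicate 3 and from 16.7 to 38.0 in miR-375 inhibitor replicate 1, so counting error alone lets single libraries of the 2 groups meet. In bulk RNA, fewer cells that express a gene and less of its RNA per cell cannot be told apart, and this holds for both genes.

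DHRS3 also had a lower mean with the miR-375 inhibitor, but its libraries did not divide by group. Its raw counts were 119, 110 and 49 in inhibitor NC replicates 1, 2 and 3. In miR-375 inhibitor replicates 1, 2 and 3 they were 36, 55 and 31. Inhibitor NC replicates 1 and 2 were high, and inhibitor NC replicate 3 lay among the inhibitor libraries, below miR-375 inhibitor replicate 2.

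In normalized counts, DHRS3 stood at 127, 105 and 47.0 in the inhibitor NC libraries and at 37.1, 57.8 and 29.6 in the miR-375 inhibitor libraries. The group means were 92.9 ± 41.2 (SD, n = 3) and 41.5 ± 14.6 (SD, n = 3), a ratio of 2.24. The mean of inhibitor NC replicates 1 and 2 was 2.46 times the level of inhibitor NC replicate 3, a larger ratio than the one between the groups. The Poisson 95% intervals, which cover counting error only, were 105.0 to 151.7 in inhibitor NC replicate 1 and 86.1 to 126 in replicate 2. In inhibitor NC replicate 3 the interval was 34.8 to 62.2, and the cause of the gap was not tested. The interval of inhibitor NC replicate 3 overlapped that of every inhibitor library, the highest of which, replicate 2, ran from 43.5 to 75.2.

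**Figure D1:**
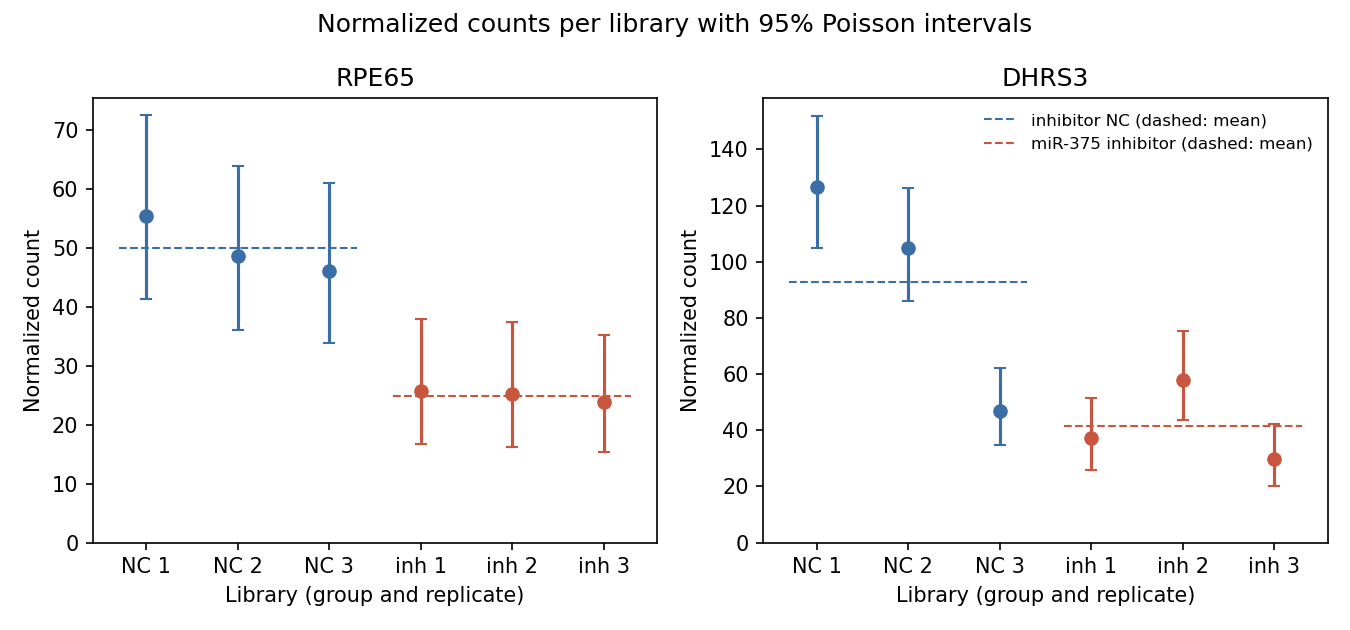
Normalized counts of RPE65 (left) and DHRS3 (right) in each library, with inhibitor NC (NC) in blue and miR-375 inhibitor (inh) in red; bars are exact Poisson 95% intervals of 1 library, and dashed lines are group means of 3 libraries. The RPE65 groups do not overlap, while DHRS3 in inhibitor NC replicate 3, at 47.0, lies below miR-375 inhibitor replicate 2, at 57.8.

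Thus 1 of the 2 genes, RPE65, had groups that did not overlap. The same held, in the lower direction, for 1250 of the 14154 genes that averaged 10 counts or more (8.83%). Since the list was selected on this contrast, nothing is read from that comparison.

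The fitted log2 fold changes were close to each other although the libraries behind them were not. In edgeR's fit the log2 fold change of miR-375 inhibitor against inhibitor NC was −1.0 for RPE65 (SE 0.24) and −1.16 for DHRS3 (SE 0.23). These standard errors, from a fit that shares information on the spread between genes, were nearly equal. The replicates' own values differed more. On the log2(CPM + 1) scale, where CPM is the count per 1000000 counts of effective library size, the difference between group means was −0.69 with a standard error of 0.0636 for RPE65. For DHRS3 it was −0.87 with a standard error of 0.416. The difference was 8.9 times the SD within groups for RPE65 and 1.71 times for DHRS3. The replicates of RPE65 varied less than counting alone predicts, at 0.455 and 0.037 times that variance in inhibitor NC and with the inhibitor. Its SD and standard error on this scale therefore understate the error of measurement. Selection on p also favours a small SD, so the 8.9 is not a measure of precision.

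RPE65 lay at the edge of the rule that chose it. Among genes with a symbol that were lower at a DESeq2 p under 0.05, RPE65 itself had the log2 fold change nearest inside −1, at −1.0019. PRSS12, a secreted serine protease, came next inside at −1.07. RTP4, an interferon-induced chaperone of receptors, was the nearest outside at −0.68, although most genes of the table carried no symbol here. Genes inside the rule carried a symbol more readily than those outside, since the study's list was a source of symbols. DHRS3, at −1.16 in DESeq2, was farther inside. In edgeR's fit RPE65 was at −1.0 when rounded, which does not place it inside. Both genes lay outside −1 in that fit with certain single libraries left out. Without inhibitor NC replicate 1 the value was −0.92 for RPE65 and −0.88 for DHRS3, and without miR-375 inhibitor replicate 3 it was −0.96 for each.

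The spread between replicates separated the genes. The SD of log2(CPM + 1) within groups, pooled over both groups, was 0.0779 for RPE65 and 0.51 for DHRS3. Genes with few counts vary more by counting alone, so each gene was set beside genes with a mean count from 0.5 to 2 times its own. For RPE65, with a mean of 37.5 counts, the 2141 such genes had a median SD of 0.194, and 3.22% of them had a lower SD than RPE65. For DHRS3, with a mean of 66.7 counts, the 2489 such genes had a median SD of 0.17, and 99.6% of them had a lower SD than DHRS3. The genes were thus near opposite ends of the spread seen at their depth.

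The contrast was present in each group, though RPE65 stood less low among its comparison genes in inhibitor NC. The coefficient of variation of the normalized counts of RPE65 was 9.64% in inhibitor NC and 3.82% with the miR-375 inhibitor. Its comparison genes had medians of 17.2% and 17.3%, and 20.6% of them in inhibitor NC and 3.83% with the inhibitor had a lower value. For DHRS3 the coefficient of variation was 44.3% in inhibitor NC and 35.2% with the inhibitor, against medians of 13.0% and 13.2%. Lower values were held by 99.1% of its comparison genes in inhibitor NC and by 97.2% with the inhibitor. Both groups therefore held a wide DHRS3 range, with the highest library 2.7 times the lowest in inhibitor NC and 1.95 times with the inhibitor. The matching ratios for RPE65 were 1.2 and 1.08.

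Set against counting alone, the libraries of RPE65 lay closer together than independent counts would on average. The variance between replicates, divided by the variance that counting predicts, was 0.455 in inhibitor NC and 0.037 with the inhibitor, where 1 stands for counting alone. In the comparison genes of RPE65, 23.2% and 2.34% had lower ratios in the same groups. For DHRS3 the ratios were 18.6 and 5.09, well above counting in both groups. Its comparison genes had medians of 1.27 and 1.21, and 99.7% and 93.0% of them had lower ratios in the same groups. The tagwise biological coefficient of variation of edgeR, which moves each gene toward the others, was 0.092 for RPE65 and 0.234 for DHRS3, beside medians of 0.122 and 0.102 in their comparison genes. It was lower than that of RPE65 in 10.2% of its comparison genes and lower than that of DHRS3 in 99.4%.

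**Figure D2:**
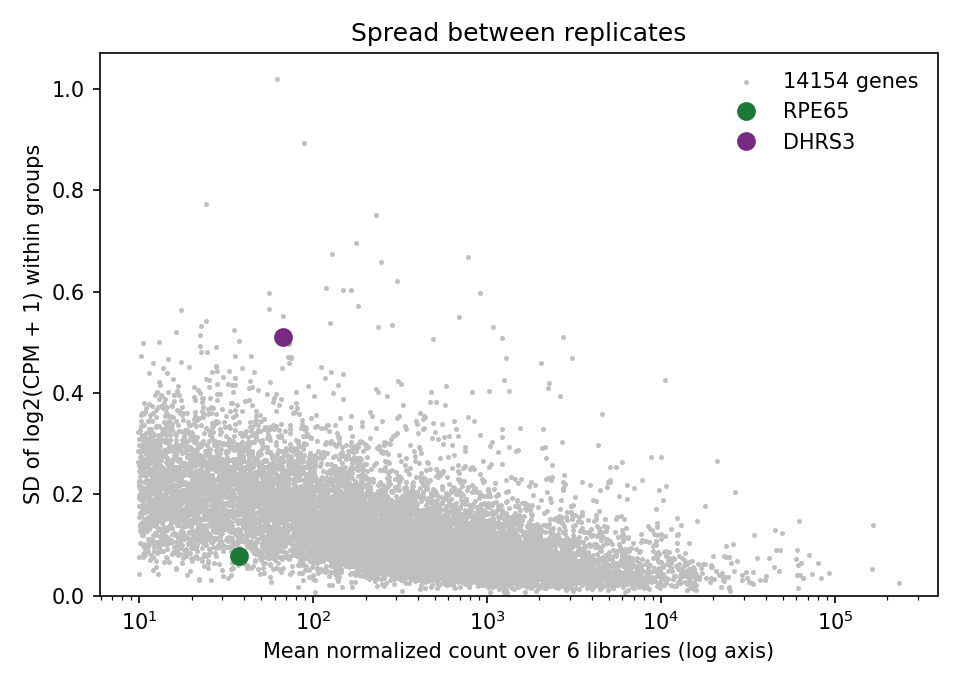
SD of log2(CPM + 1) within groups, pooled over the 2 groups, against the mean normalized count over 6 libraries (log axis) for 14154 genes that averaged 10 counts or more (grey), RPE65 (green) and DHRS3 (purple). RPE65, at 0.0779, lies near the lower edge of the genes at its depth, and DHRS3, at 0.51, lies near the upper edge.

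Single libraries carried part of these values. Without inhibitor NC replicate 3 the pooled SD of DHRS3 was 0.308, and the median of its comparison genes over all 6 libraries was 0.17. Without inhibitor NC replicate 1 the pooled SD of RPE65 was 0.0366. With any other single library left out, the SD lay between 0.483 and 0.586 for DHRS3 and between 0.0655 and 0.0896 for RPE65.

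The DHRS3 level followed the main axis on which the libraries differed. The first principal component of the other 14152 genes that averaged 10 counts or more held 36.1% of their variance. Its scores were −15.6, −9.82 and 5.45 in inhibitor NC replicates 1, 2 and 3, and 7.68, −2.29 and 14.6 in miR-375 inhibitor replicates 1, 2 and 3. On this axis too, inhibitor NC replicate 3 lay among the inhibitor libraries. The order of the DHRS3 levels was exactly the reverse of the order of the scores, with Pearson r of −0.986 and Spearman rho of −1.0 over the 6 libraries. Without the 2 libraries farthest from the median score, r was −0.973 (n = 4). The correlation of the deviations from the group means was also −0.986, larger in size than for 98.7% of the 14154 genes.

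RPE65 followed that axis less closely. Its r with the score was −0.739 and rho −0.829 over the 6 libraries, and without the 2 libraries farthest from the median score r was −0.395 (n = 4). Since its levels lay apart by group, the pooled value mostly carries the difference between the groups. After the group means were removed, r was −0.777, larger in size than for 70.6% of genes. The deviations of RPE65 behind this value lay within counting error. Inhibitor NC replicate 3 and miR-375 inhibitor replicate 1, which had scores of 5.45 and 7.68, stood at 46.1 and 25.7 normalized counts of RPE65 but at 47.0 and 37.1 of DHRS3.

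**Figure D3:**
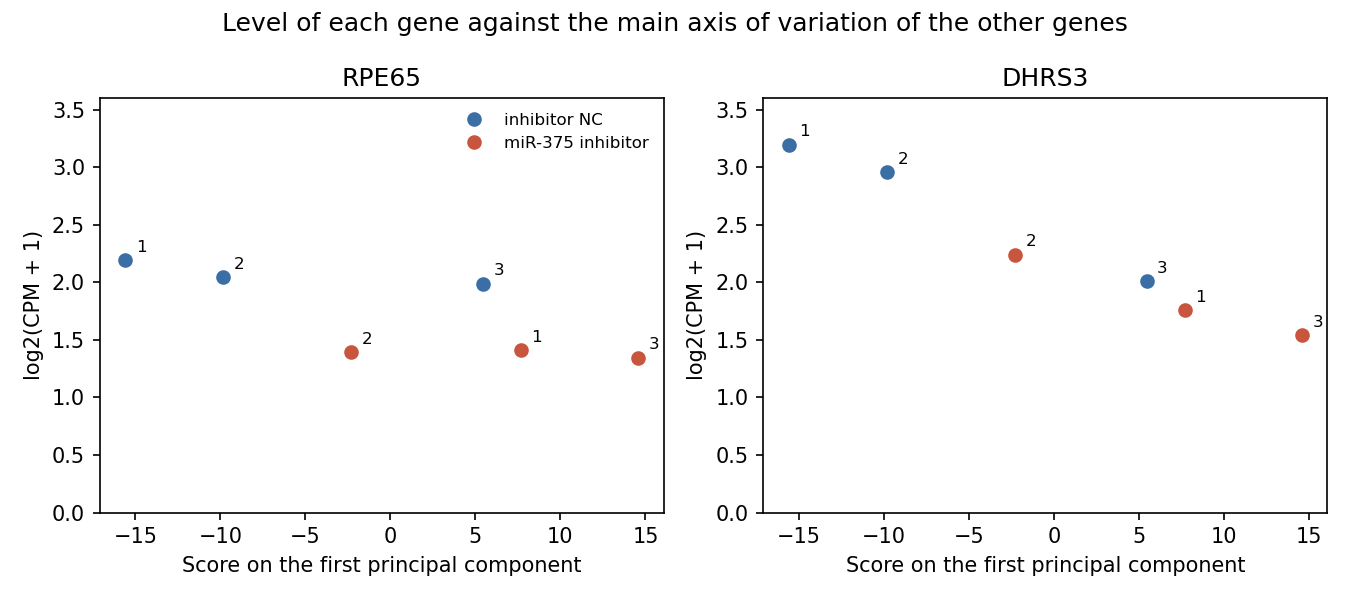
log2(CPM + 1) of RPE65 (left) and DHRS3 (right) against each library's score on the first principal component of the other genes; blue points are inhibitor NC, red points are miR-375 inhibitor, and digits are replicate numbers. DHRS3 decreases along the axis across both groups (r of −0.986), while RPE65 stays at 2 separate levels by group.

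With the score added to edgeR's model, an alternative chosen after the data were seen, the log2 fold change was −0.87 for RPE65 and −0.25 for DHRS3. The mean score was −6.65 ± 10.9 (SD, n = 3) in inhibitor NC and 6.66 ± 8.47 (SD, n = 3) with the inhibitor, so the score also carries part of the difference between the groups. What sets the score was not tested, and for DHRS3 the axis and the treatment cannot be told apart beyond these values.

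The levels of the 2 genes were correlated. Both were picked as changed in this contrast and both were lower, which by itself raises that correlation. The correlation between RPE65 and DHRS3 over the 6 libraries was 0.809, and that of their deviations from the group means was 0.776. The deviations of RPE65 behind the second value lay within counting error, so nothing is read from it.

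The named genes most like RPE65 also divided by group, which a high r with a gene that itself divides by group largely entails. Among 14153 genes, 105 had r above 0.95 and 86 had r below −0.95 with RPE65 over the 6 libraries, and 735 of the 14153 carried a symbol. The 5 closest with a symbol were FNDC3B (r of 0.983), the cystine/glutamate antiporter gene SLC7A11 (0.95), the glutamate receptor gene GRIA3 (0.944), the tight junction gene CLDN1 (0.942) and the cholesterol ester hydrolase gene NCEH1 (0.929). A high r did not mean a change of like size. FNDC3B had 5905 ± 76.8 (SD, n = 3) normalized counts in inhibitor NC and 5058 ± 89.5 (SD, n = 3) with the inhibitor, a log2 fold change of −0.22, and that of SLC7A11 was −1.24.

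Genes with a pattern like that of DHRS3 were more numerous, and the named ones had its order of libraries. For DHRS3, 254 genes had r above 0.95 and 141 had r below −0.95. The 5 closest with a symbol were the cytokine gene IL6 (r of 0.993), the oxidized LDL receptor gene OLR1 (0.993), the galactosyltransferase gene B4GALT4 (0.991), the mitochondrial folate enzyme gene ALDH1L2 (0.991) and the biotin ligase gene HLCS (0.987). Each had a Spearman rho of 1.0 with DHRS3. Of these 5 genes, 3 (IL6, OLR1 and ALDH1L2) were on the study's list, as was SLC7A11 among those most like RPE65. These genes were thus selected on the same contrast. The list was also a source of symbols, so genes on it were more likely to be named here.

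IL6 shows the shared order. Its normalized counts were 358, 260 and 129 in inhibitor NC replicates 1, 2 and 3, and 112, 148 and 78.4 in miR-375 inhibitor replicates 1, 2 and 3. As for DHRS3, inhibitor NC replicate 3 was below miR-375 inhibitor replicate 2.

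After the group means were removed, CLDN1 was again among the 5 closest to RPE65 and B4GALT4 among the 5 closest to DHRS3, and the other genes differed. For RPE65 these were PCCB (r of 0.994), PHKA1 (0.987), P3H2 (0.985), GPKOW (0.977) and CLDN1 (0.965), and for DHRS3 they were B4GALT4 (0.994), IFNAR2 (0.991), CBS (0.991), SH3BGRL (0.991) and NDUFB11 (0.989). None of these genes was on the study's list. The fitted log2 fold changes of 4 of those near DHRS3 were small, at −0.08 for the interferon receptor gene IFNAR2, −0.19 for the cystathionine synthase gene CBS, −0.16 for SH3BGRL and 0.12 for the respiratory chain gene NDUFB11. These 4 genes shared the direction of the DHRS3 deviations but not their size, with pooled SDs of 0.163 for IFNAR2, 0.159 for CBS, 0.152 for SH3BGRL and 0.137 for NDUFB11 against 0.51 for DHRS3. In all, 386 genes had r above 0.95 with DHRS3 on this measure and 342 had r below −0.95. For RPE65 these counts were 137 and 148. The variance of RPE65 between replicates was only 0.455 and 0.037 times that of counting alone in the 2 groups. Its deviations thus lay within counting error, and nothing is read from the genes that share them.

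The rest of retinoid metabolism could be followed only in part, since few identifiers were paired with a symbol. Of 48 retinoid genes listed, 6 were paired, and the rest were not analysed here. RBP2, a retinol-binding protein gene of the intestine, had 0 counts in all 6 libraries. The wax synthase gene AWAT2, which was 1 of 3 listed genes of retinyl ester formation, and RARRES1, a gene induced by retinoids, also had 0 counts in all 6 libraries. A count of 0 allows up to 3 counts, or between 0.184 and 0.207 CPM, in a library.

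RPE65 was the paired gene of the 3 for isomerases and carotenoid cleavage, and DHRS3 that of the 15 retinol dehydrogenases and retinal reductases. DHRS3 and RARRES1 were paired of the 7 genes known to respond to retinoic acid. None of the 5 genes of retinal oxidation, the 3 of retinoic acid breakdown or the 6 nuclear receptors was paired, so retinoic acid formation, removal and receptors were not analysed here. Over all genes, edgeR's quasi-likelihood test called 350 of 20755 (1.69%) at a Benjamini-Hochberg adjusted p under 0.05, 249 lower and 101 higher with the inhibitor. DESeq2 called 75, of which 41 were lower.

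The edgeR count depended on the filter and on single libraries. With all 6 libraries it was 0 for genes with at least 10 counts in total (1972 at an unadjusted p under 0.05) and 0 with filterByExpr (1844 at an unadjusted p under 0.05). It was 0 without inhibitor NC replicate 1 (1543 genes at an unadjusted p under 0.05), 167 without inhibitor NC replicate 2, 756 without inhibitor NC replicate 3, 125 without miR-375 inhibitor replicate 1, 452 without miR-375 inhibitor replicate 2 and 204 without miR-375 inhibitor replicate 3.

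RPE65 is best known from the retinal pigment epithelium, so markers of that tissue and of photoreceptors were examined beside it. Of 15 listed, 3 were paired: the cone opsin gene OPN1LW had 0 counts in all 6 libraries, and RP2, which many tissues express, was the most abundant. The summed level of the 3 genes was 21.7, 20.1 and 22.2 CPM in inhibitor NC and 19.0, 19.1 and 19.3 CPM with the inhibitor. SLC24A1, the rod sodium/calcium exchanger gene, had counts of 9, 12 and 28 in inhibitor NC and 5, 8 and 5 with the inhibitor, highest in inhibitor NC replicate 3, where DHRS3 was lowest among the controls. It was on the study's list too.

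Markers of other cells were paired in part as well. Of 13 mammary and epithelial markers only TP63 was paired, with 10, 14 and 16 counts in inhibitor NC and 4, 10 and 10 with the inhibitor (0.686, 0.859 and 0.988 CPM, then 0.265, 0.676 and 0.615 CPM), so the label of the cells could not be checked against keratins or milk proteins. Of 9 leukocyte markers, 4 were paired. TIGIT, TRAT1 and CD40LG had 0 counts in all 6 libraries, and ITGB2, the most abundant, had 2 to 4 counts, so that the sum of the list lay between 0.123 and 0.271 CPM.

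Of 9 fibroblast and stromal markers, 3 were paired, and COL6A1 was the most abundant. Their summed level was 926, 930 and 899 CPM in inhibitor NC and 970, 1010 and 982 CPM with the inhibitor. LUM, a proteoglycan gene of stroma and part of the study's list, had 11, 7 and 0 counts in inhibitor NC and 0, 0 and 2 with the inhibitor. LUM and DHRS3 were thus both highest in inhibitor NC replicates 1 and 2, while COL6A1 and COL6A2 were not. LUM had at most 11 counts and was on a list selected on this contrast, so nothing is read from the shared order. Whether any stromal cells were present in this epithelial line, and any part of theirs in the DHRS3 result, was not tested.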

How the data were processed

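RNA-seq was analysed in 6 libraries, whose group and replicate number came from their labels. The authors deposited raw counts per gene. The submitters' processing notes name HISAT2, featureCounts, Subread and DESeq2 and the build UMD3.1; versions and strand setting were not given in the sources used here, and the build was not checked. Reads of genes that overlap on opposite strands may therefore be mixed.

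The 20755 genes with at least 1 count entered edgeR 4.0.16 (R 4.3.3), with TMM factors, a quasi-likelihood F test on the group and p-values adjusted by Benjamini and Hochberg's method; DESeq2 1.42.0 was an alternative. The common biological coefficient of variation was 0.0653. Spread and correlations used log2 of CPM plus 1 for genes that averaged 10 counts or more (Python 3.11.15; pandas 2.3.3, scipy 1.17.1, numpy 2.4.6). Correlations are descriptions over 6 libraries that share treatment, depth and normalization, with no p. The scripts were tested on simulated data.

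Chi-square per degree of freedom between libraries was 3.01 to 11.2 over genes with 20 or more counts in a pair, so no library was a copy of another within sampling noise. The study's supplementary gene tables, held in part, paired 1410 identifiers with a symbol. They include the study's list of changed genes, so genes on that list carried a symbol more readily than other genes. This holds for markers and for all genes named by likeness or threshold. The RefSeq gene table of another assembly held no matching identifiers. Coordinates and sequences were not used here.

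The members and gene lists were chosen with earlier results of these data known. Genes named were RPE65 and DHRS3, paired genes of the retinoid lists, the 5 genes with a symbol closest to each by levels and by deviations from group means, those with a symbol nearest the threshold of log2 fold change −1, and paired markers of retina, mammary epithelium, stroma and leukocytes. Of the paired retinoid genes, 1 is not reported here. Alternatives were DESeq2, its size factors, total counts alone, at least 10 counts in total, filterByExpr, edgeR's robust fit, a replicate block, pseudocounts of 0.5 and 2, ranks, and each library left out; the principal component as a covariate was added after the data were seen.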

Additional observations from a re-analysis of the deposited data

How the results depend on the processing

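The log2 fold changes of RPE65 and DHRS3 were negative under each of 13 alternatives. They moved by more than the SD between replicates with the first principal component as a covariate (−0.87 for RPE65 and −0.25 for DHRS3), and the cause of that shift was not tested. Without inhibitor NC replicate 1, RPE65 moved by close to its SD, to −0.92. With each library left out in turn they ran from −1.05 to −0.92 for RPE65 and from −1.48 to −0.88 for DHRS3. The spread ran from 0.0366 to 0.0896 for RPE65 and from 0.308 to 0.586 for DHRS3 and moved little in 9 of 10 alternatives for each gene. With pseudocounts of 0.5 and 2 it was 0.089 and 0.0625 for RPE65, and 0.566 and 0.427 for DHRS3.

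The number of genes at an adjusted p under 0.05 was 75 in DESeq2 and 917 with the principal component as a covariate. In edgeR it was 0 for genes with at least 10 counts in total (1972 at an unadjusted p under 0.05) and 0 with filterByExpr (1844 at an unadjusted p under 0.05); the cause was not tested. It ran from 0 to 756 with each library left out, 0 being without inhibitor NC replicate 1 (1543 at an unadjusted p under 0.05).

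In the model with a replicate block, 840 genes were called, and the log2 fold changes were −1.0 for RPE65 and −1.13 for DHRS3. Deviations of same-numbered libraries correlated at −0.06, 0.15 and 0.34, and 3 of 6 libraries correlated best with their own number in the other group, so the numbers were not taken to pair the libraries.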
